A study of Mus musculus with 6 samples.

Results

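The angiotensin and vasopressin genes described here are Agt, Ace, Agtr1a, Agtr1b, Agtr2, Agtrap and Avpr1a, which were taken as a list of the renin-angiotensin genes and the vascular vasopressin receptor. The list was named by gene function and not by a rule on measured values, but with earlier results of these data known. Each gene was read through the probe set that carries its symbol alone in the platform's annotation, with the highest-mean probe set kept where a gene had several. Of the 7 listed genes 6 were measured, out of 19938 genes in all, and each of the 6 had 1 such probe set. Agtr1b was not analysed here. The arrays hold RNA of ascending or descending aorta taken as primary tissue, not as sorted cells. The embryos of both groups were untreated, wild-type, on the C57BL/6 background and aged 13.5 days postcoitum, and each segment has 3 arrays labelled as biological replicates. The study sought expression profiles that go with the embryonic origin of the vessel wall, which is largely cardiac neural crest for ascending and mesoderm for descending aortic smooth muscle. The labels name no embryo, sex, litter or pool behind an array, so p-values speak only of the spread among these 6 samples. The values are log2 expression after RMA, a standard treatment of Affymetrix signals that corrects background, gives every array the same distribution and merges the probes of each set into 1 value. Probe sets differ in how strongly they bind their target and come with no detection call, so a level is compared between arrays for 1 gene, never between genes.

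Angiotensinogen, the product of Agt, is a secreted precursor from which renin cuts angiotensin I, and angiotensin-converting enzyme, the product of Ace, turns that into angiotensin II. Angiotensin II acts on vascular smooth muscle through type 1 receptors, which couple to Gq proteins and cause contraction, and on type 2 receptors, which often oppose type 1 signalling and are known for strong expression in fetal mesenchyme. Agtrap binds type 1 receptors and promotes their removal from the cell surface, and Avpr1a is the V1A receptor through which vasopressin contracts vessels. Mouse has a pair of type 1 receptor genes, Agtr1a and Agtr1b, of which Agtr1a is the main one in vessels.

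The receptor genes Agtr2 and Avpr1a were the members with the widest span between arrays, and both were lowest on ascending replicates 1 and 2. On the log2 scale and relative to the descending mean, Agtr2 lay at -2.02 and -2.75 on these arrays and Avpr1a at -0.95 and -1.35. Ascending replicate 3 lay near the descending level for both genes, at -0.18 for Agtr2 and -0.035 for Avpr1a. Agt, Ace, Agtr1a and Agtrap differed less. Over all 6 arrays no member passed the test between segments, which was a linear model per gene in limma with p-values adjusted by Benjamini-Hochberg over all 19938 genes and a threshold of 0.05. The background share is 0.0%, since no gene of the array passed, and the lowest adjusted p over all genes was 0.53 in limma. At an unadjusted p under 0.05 stood 2 of the 6 members, Agtr2 and Avpr1a, both lower in ascending aorta, against 9.29% of all genes in either direction and 5.33% in that direction. The median difference over the 6 members was -0.25 on the log2 scale, ascending minus descending, beside -0.021 over all genes.

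Ascending replicate 3 stood apart from its group across the array and not only in these genes. Its Pearson correlation across genes, which are not independent replicates, lay between 0.993 and 0.997 with the descending arrays and was 0.991 and 0.986 with ascending replicates 1 and 2. The members' results are therefore given with and without it. Because that array was singled out by its values, the p-values of the fit without it are likely too small, and the fit leaves 2 ascending arrays. In that fit 933 genes passed, or 4.68% of those tested, and 2 of the 6 members were among them, both lower in ascending aorta, where 2.61% of all genes passed. With descending replicate 1 left out too, 469 genes or 2.35% passed, 1.18% of all genes in the lower direction, and 1 member was among them, Agtr2. The same caution holds for that fit, which leaves 2 arrays in each segment. Descending replicate 1 also stood apart, with an Xist level of 5.80 against 10.1 to 11.2 on the other arrays. Xist is the RNA of the inactive X chromosome, and on the same array Kdm5d, Eif2s3y and Uty, which are Y-linked, had their highest level.

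**Figure D1:**
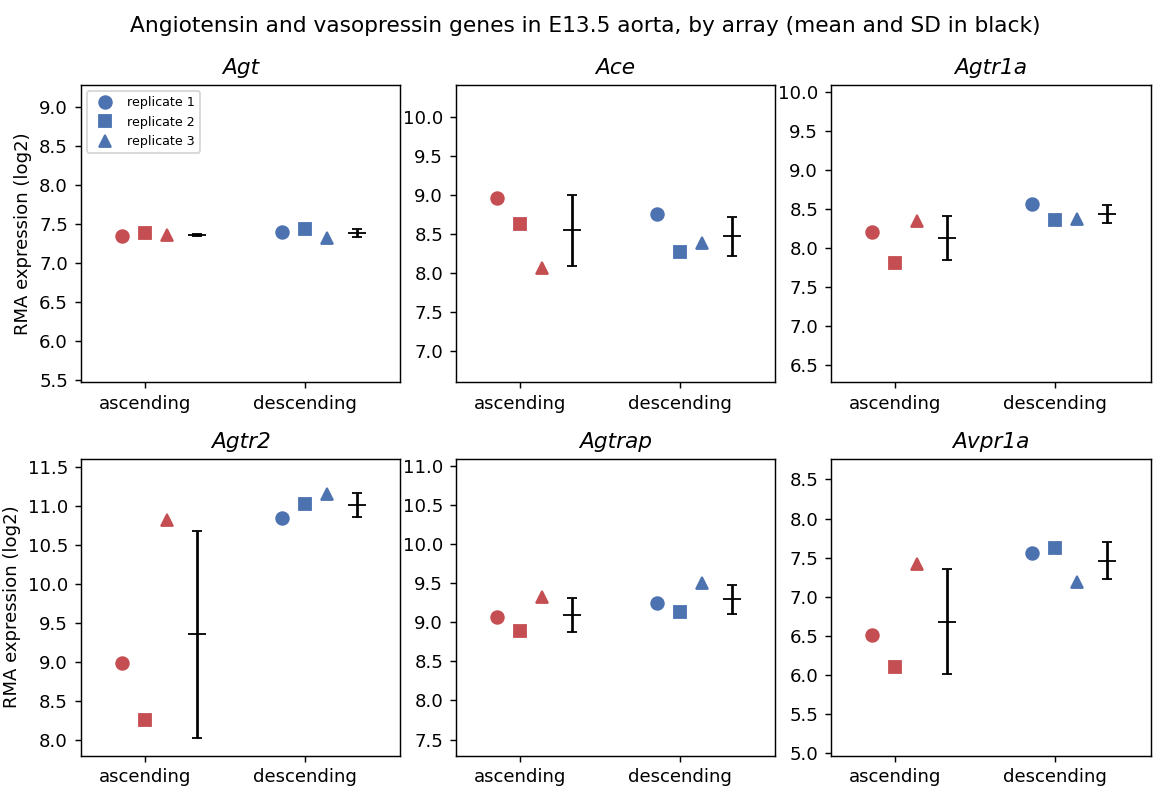
RMA expression on the log2 scale of the 6 measured genes on each array, with ascending aorta in red, descending aorta in blue, the replicate number as the marker shape, and the mean and SD of each segment in black. All panels span the same log2 range: Agtr2 and Avpr1a are low on ascending replicates 1 and 2 only, and Agt lies within 0.11 over all arrays.

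The sequences before the transcription starts of Agtr2 and Avpr1a are shown because these are the members that spanned at least 1 on the log2 scale over the 6 arrays. These sequences are the 250 bases before each start on the gene's own strand, 5′ to 3′, from RefSeq of GRCm38.p6, whose promoter table held windows for 6 of the 7 listed genes, all but Agtr1a. The Agtr2 window is chrX:21484374-21484623 and the Avpr1a window is chr10:122448249-122448498, both on the plus strand. Capitals mark each match to TATAA on either strand, where matches can overlap.
Agtr2: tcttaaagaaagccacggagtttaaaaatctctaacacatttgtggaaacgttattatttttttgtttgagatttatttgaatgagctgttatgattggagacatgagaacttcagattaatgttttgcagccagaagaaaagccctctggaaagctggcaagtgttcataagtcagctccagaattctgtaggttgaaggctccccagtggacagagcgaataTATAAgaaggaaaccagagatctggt
Avpr1a: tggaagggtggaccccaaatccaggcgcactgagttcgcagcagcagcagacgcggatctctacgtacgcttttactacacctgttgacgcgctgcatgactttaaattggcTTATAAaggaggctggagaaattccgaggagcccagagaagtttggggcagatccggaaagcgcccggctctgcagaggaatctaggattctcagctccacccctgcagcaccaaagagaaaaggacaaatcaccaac
The Agtr2 window has 1 match, which begins 26 bases before the start, and the Avpr1a window has 2 overlapping matches, which begin 138 and 137 bases before it. TATAA was found in 22.8% of all 32851 windows of this length. The E-box letters CANNTG occurred 2 times in the Agtr2 window and 1 time in the Avpr1a window, against 66.2% of all windows with a match. Neither window held TAATTA, the core letters of many homeodomain sites, GGGCGG, the core of an Sp1 site, or a CArG box, the site of serum response factor, which 4.84%, 32.7% and 1.47% of all windows held on either strand. The share of G and C was 38.4% for Agtr2 and 53.6% for Avpr1a, with a median of 52.4% over all windows. The arrays do not measure the use of these starts, and the matches describe letters only.

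Agtr2 encodes the type 2 angiotensin receptor and lies on the X chromosome at chrX:21484624-21488833 of GRCm38.p6 (probe set 10599001). It stood at 8.99, 8.26 and 10.8 on ascending replicates 1, 2 and 3 and at 10.8, 11.02 and 11.1 on descending replicates 1, 2 and 3. The first 2 ascending arrays were far below all others, and the third was below the lowest descending array by 0.024, so the groups did not overlap by a margin smaller than the descending spread of 0.31 from lowest to highest. Ascending aorta averaged 9.35 ± 1.32 (SD, n = 3), and the descending mean was 11.004 ± 0.15 (SD, n = 3). The difference of -1.65 ± 0.56 (SE) did not pass (adjusted p = 0.53 by limma, 95% confidence interval -2.97 to -0.33). Without ascending replicate 3 Agtr2 was lower by a log2 difference of -2.38 ± 0.20 (SE), which is 5.21-fold (adjusted p = 0.000995 by limma). That was the 11th lowest difference among 19938 genes. Without descending replicate 1 as well, the array with low Xist, the difference was -2.46 ± 0.23 (SE) and passed (adjusted p = 0.0109 by limma). That fit leaves 2 arrays in each segment and both omissions followed the values, so its p-value is likely too small. Descending replicate 1 gave the lowest Agtr2 level of its group.

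Avpr1a encodes the V1A vasopressin receptor, at chr10:122448499-122453453 (probe set 10366707). Its levels were 6.51, 6.11 and 7.42 on ascending replicates 1, 2 and 3, and 7.56, 7.63 and 7.19 on descending replicates 1, 2 and 3. The mean of Avpr1a was below the 50th percentile of all genes, and RMA compresses differences of dim genes. Ascending replicate 3 lay inside the descending range, so the groups overlapped. Ascending aorta averaged 6.68 ± 0.67 (SD, n = 3), against 7.46 ± 0.24 (SD, n = 3) for descending aorta. The difference of -0.78 ± 0.31 (SE) did not pass over all arrays (adjusted p = 0.53 by limma). Without ascending replicate 3 Avpr1a was lower by a log2 difference of -1.15 ± 0.17 (SE), or 2.22-fold (adjusted p = 0.00894 by limma). The difference ranked 124th lowest, and it missed the threshold when descending replicate 1 was left out too, at -1.098 ± 0.19 (SE) and an adjusted p of 0.0522 by limma.

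Agtr1a encodes the main vascular type 1 receptor, at chr13:30336356-30382867 (probe set 10404376). It read 8.21, 7.81 and 8.35 in ascending and 8.57, 8.36 and 8.37 in descending aorta, in the order of the replicate numbers. The ascending arrays lay below the descending arrays, but replicate 3 did so by only 0.011. The difference was -0.31 ± 0.15 (SE) and did not pass (adjusted p = 0.55 by limma), with a 95% confidence interval from -0.65 to 0.031. Without ascending replicate 3 it was -0.42 ± 0.14 (SE), and it did not pass there either (adjusted p = 0.15 by limma). Without ascending replicate 2 it was -0.15. Agtr1a and Agtr1b are close copies, and whether the Agtr1a probe set also binds Agtr1b RNA was not tested.

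The groups did not overlap for 2 of the 6 members, Agtr2 and Agtr1a, against 14.8% of all genes. After repeated quantile normalization this held for Agtr2 alone, and after median-centring of the arrays for Agtr1a alone. For both genes the exact permutation test of the segment means gave a two-sided p of 0.1, which is the smallest that 3 against 3 arrays can give. Ascending replicates 1 and 2 both lay below all descending arrays for 4 members, Agtr2, Avpr1a, Agtr1a and Agtrap, where 18.9% of all genes did so.

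The receptor types were set against each other within each array, a comparison chosen after the values were seen. The log2 ratio of Agtr2 to Agtr1a was set to 0 at its descending mean. Ascending replicates 1, 2 and 3 then gave -1.79, -2.12 and -0.10, and the descending arrays gave -0.30, 0.084 and 0.21. The Agtr2 value was thus further below its descending level than the Agtr1a value on ascending replicates 1 and 2, while replicate 3 lay inside the descending range. Probe sets can compress a change to unlike degrees, so the sizes of the 2 changes in RNA may rank otherwise. The exact permutation test over the 6 arrays gave p = 0.2, two-sided. The ratio of Agtr2 to Avpr1a gave p = 0.3 in the same exact test and that of Agtr2 to Agtrap gave p = 0.1, so none of the 3 ratios computed passed, and a p of 0.1 is the smallest this test can give.

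Agtrap, whose product lowers type 1 receptors at the cell surface, lies at chr4:148077061-148088064 (probe set 10518455). It gave 9.07, 8.89 and 9.32 on the ascending and 9.25, 9.14 and 9.50 on the descending arrays. The groups overlapped, and the difference of -0.20 ± 0.14 (SE) did not pass (adjusted p = 0.65 by limma). Without ascending replicate 3 the difference was -0.31 ± 0.13 (SE) with an adjusted p of 0.26 by limma, and without ascending replicate 2 or descending replicate 3 it was -0.098 or -0.099.

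Agt, the gene of the precursor angiotensinogen, lies at chr8:124556587-124569706 (probe set 10582658). It stood at 7.35, 7.38 and 7.36 on the ascending and 7.41, 7.43 and 7.33 on the descending arrays, and all 6 arrays lay within 0.11. The Agt difference was -0.026 ± 0.072 (SE), with a 95% confidence interval from -0.19 to 0.14 and an adjusted p of 0.91 by limma. Liver cells are the main source of angiotensinogen later in life, and hepatocyte transcripts varied widely between the same arrays. Alb, the gene of serum albumin, read 7.44, 9.26 and 8.78 on the ascending and 7.54, 10.1 and 8.29 on the descending arrays. Agt read 7.43 on the array with the highest Alb level and 7.35 on the array with the lowest, but the arrays between did not keep that order. Descending replicate 1, with Alb at 7.54, had Agt at 7.41, and descending replicate 3, with Alb at 8.29, had the lowest Agt value, 7.33. A link between the 2 genes was not tested.

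Ace, the gene of angiotensin-converting enzyme, lies at chr11:105967948-105989964 (probe set 10381962) and is typical of endothelium. It was the 1 member with a higher mean in ascending aorta. It read 8.96, 8.62 and 8.06 on the ascending and 8.75, 8.27 and 8.39 on the descending arrays. Ascending replicate 3 had the lowest value of all 6 arrays and ascending replicate 1 the highest, so the groups overlapped fully. The difference was 0.077 ± 0.23 (SE) over all arrays (adjusted p = 0.92 by limma) and 0.32 ± 0.16 (SE) without ascending replicate 3 (adjusted p = 0.39 by limma). Leaving out ascending replicate 1 turned it to -0.13 and leaving out descending replicate 2 turned it to -0.025, so its sign rested on single arrays.

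**Figure D2:**
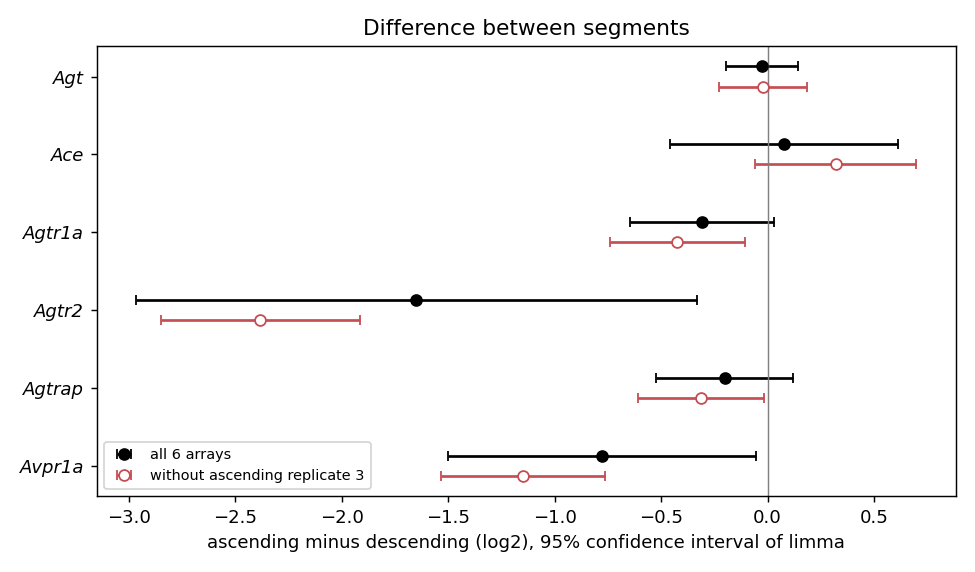
Log2 difference of ascending minus descending aorta for each gene with the 95% confidence interval of limma, over all 6 arrays in black and without ascending replicate 3 in red. The interval of Agtr2 runs from -2.97 to -0.33 over all arrays and from -2.85 to -1.91 without that array, and the intervals of Agt and Ace include 0 in both fits.

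The genes whose pattern over the 6 arrays was most like a member were found for Agtr2 and Avpr1a, the members that spanned at least 1 on the log2 scale. Likeness was the root mean square of the differences between arrays' values after each gene was centred on its own mean, so it weighs the size of a pattern as well as its shape. The 5 nearest genes to Agtr2 were Fmo1, a flavin monooxygenase, at 0.19, Emcn, an endothelial sialomucin, at 0.198, Bnc2, a zinc finger protein of mesenchymal cells, at 0.20, Aspn, a small leucine-rich matrix protein, at 0.21 and Meox2, a homeobox factor of mesenchyme and endothelium, at 0.22. The median over all genes was 1.13. Fmo1 gave 8.95, 8.29 and 10.9 on the ascending and 11.4, 11.2 and 11.2 on the descending arrays. The 5 nearest genes to Avpr1a were Tspan11, a tetraspanin, at 0.12, Lpar4, a lysophosphatidic acid receptor, at 0.13, Col11a1, a fibrillar collagen chain, at 0.13, Lcp1, an actin-bundling protein of leukocytes, at 0.14 and Vwf, the von Willebrand factor of endothelium, at 0.14, against a median of 0.57. All 10 are genes with low values on ascending replicates 1 and 2. They were chosen for this pattern, so their likeness is a description over 6 arrays.

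**Figure D3:**
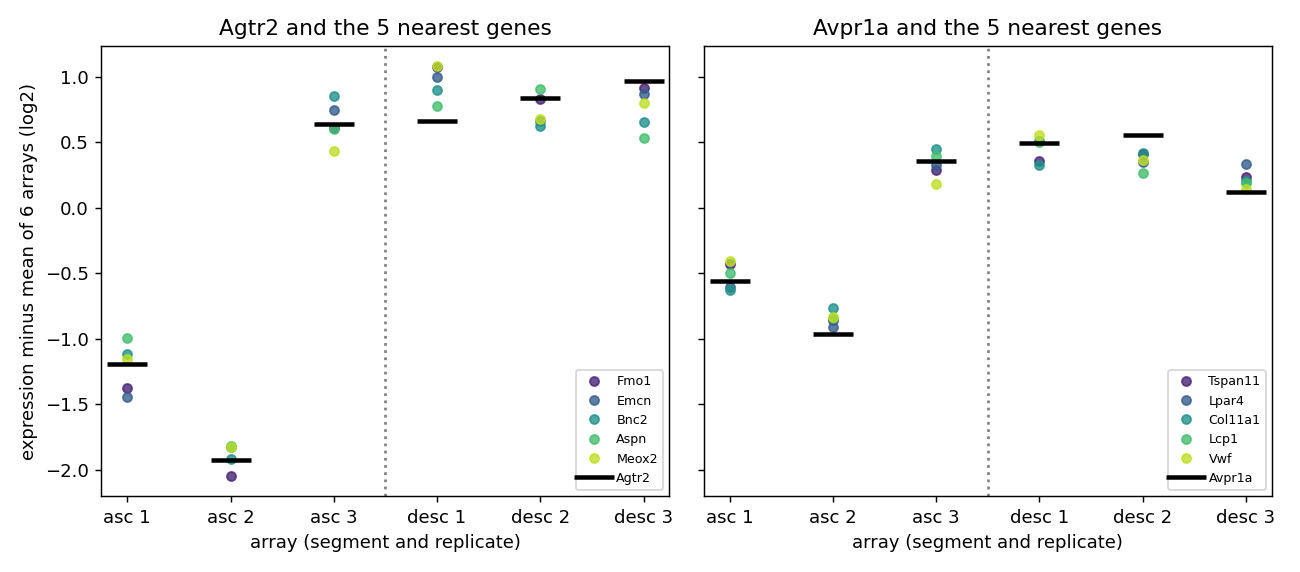
Log2 expression minus each gene's mean over the 6 arrays, for Agtr2 (left, black bars) and Avpr1a (right, black bars) with the 5 genes nearest to each as coloured points. On both sides ascending replicate 3 sits with the descending arrays, right of the 2 low ascending arrays.

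The other genes of the system came from 7 lists with 59 genes, of which 52 were measured. Over all arrays 0 of the 52 passed the test in limma, with 4 lower and 0 higher at an unadjusted p under 0.05, which for the lower direction is 7.69% beside 5.33% of all genes. A lower mean in ascending aorta was found for 31 of the 52, or 59.6%, beside 56.2% of all genes. The groups did not overlap for 7 of the 52, in either direction, beside 14.8% of all genes. Without ascending replicate 3, 2 passed, both lower, where 2.61% of all genes passed in that direction. These were Anpep and Arrb1. The median difference of the 52 genes was -0.059 over all arrays and -0.044 without ascending replicate 3, beside -0.021 and -0.018 over all genes.

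Among renin and the peptidases that make or degrade angiotensins 12 of 15 were measured, 6 with a lower and 6 with a higher mean. Anpep, the aminopeptidase N that acts on angiotensin III, gave 10.6, 9.58 and 11.3 on the ascending and 11.8, 11.3 and 11.3 on the descending arrays. As for Agtr2, ascending replicates 1 and 2 were the lowest of the 6 arrays. The difference was -1.01 ± 0.39 (SE) over all arrays (adjusted p = 0.53 by limma) and -1.42 ± 0.28 (SE) without ascending replicate 3 (adjusted p = 0.0295 by limma). Without descending replicate 1 as well it did not pass (adjusted p = 0.11 by limma). Enpep, the aminopeptidase A that turns angiotensin II into angiotensin III, differed by -0.25 ± 0.090 (SE), with all ascending below all descending arrays. Atp6ap2, the prorenin receptor, differed by 0.013 ± 0.14 (SE), and neither passed (adjusted p = 0.53 and 0.98 by limma). Ren1 was not analysed here.

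Of the 7 genes for other angiotensin receptors and receptor-binding proteins all were measured. Arrb1, the beta-arrestin that uncouples and internalises type 1 receptors, gave 9.83, 9.78 and 10.3 on the ascending and 10.2, 10.3 and 10.3 on the descending arrays. It differed by -0.31 ± 0.14 (SE) over all arrays (adjusted p = 0.54 by limma) and by -0.48 ± 0.088 (SE) without ascending replicate 3 (adjusted p = 0.0223 by limma). Without descending replicate 1 as well it just missed the threshold (adjusted p = 0.0521 by limma). Mtus1, whose product binds the type 2 receptor, read 8.996 and 9.46 on ascending replicates 1 and 2, where Agtr2 was low, 8.45 on replicate 3 and 8.53 to 8.83 in descending aorta. Its difference of 0.28 ± 0.23 (SE) did not pass (adjusted p = 0.70 by limma). It was 0.54 ± 0.15 (SE) without ascending replicate 3 (adjusted p = 0.10 by limma), 0.61 without descending replicate 1 as well and 0.035 without ascending replicate 2. Mas1, a receptor linked to angiotensin 1-7, differed by -0.0070 ± 0.091 (SE). It read below the median of every array, so this value does not show that Mas1 was expressed and unchanged.

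The vasopressin and oxytocin list had 5 of 5 genes measured and 0 that passed in either fit. Avpr2, the kidney-type vasopressin receptor on the X chromosome, differed by -0.12 ± 0.071 (SE) and Oxtr, the oxytocin receptor, by -0.10 ± 0.11. Avp, the vasopressin gene, stood between 7.70 and 7.89 on all arrays. In the kinin list Kng1 differed by 0.23 ± 0.23, with 0.041 once ascending replicate 2 and 0.090 once descending replicate 1 was left out, and the bradykinin receptor gene Bdkrb2 by -0.11 ± 0.080 (SE), and 0 of 4 measured genes passed. Nr3c2, the mineralocorticoid receptor that aldosterone activates, differed by 0.22 ± 0.15 (SE) in a list of 3 with none passing. Ascending replicate 1 stood at 6.80 and the other arrays at 6.17 to 6.30, and without that array the difference was 0.040. Avpr2, Oxtr, Kng1, Bdkrb2 and Nr3c2 read below the median of every array, and RMA compresses differences of dim genes. With no detection call, their small differences do not show that these genes were expressed and unchanged.

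Downstream of the receptors, 15 of 16 genes for G proteins and the signalling steps after them were measured, and 0 passed in either fit. Itpr3, a calcium release channel gated by inositol trisphosphate, had the largest difference of them at -0.22 ± 0.090 (SE). Of 8 genes known as induced by angiotensin II 6 were measured and 0 passed. Ccn2, a matricellular protein gene, gave 12.4, 12.2 and 12.4 on the ascending and 13.0, 12.6 and 12.6 on the descending arrays. All 3 ascending arrays were below all descending arrays, replicate 3 included. In either direction 7 of the 52 pathway genes and 14.8% of all genes were separated in this way. The Ccn2 difference of -0.43 ± 0.12 (SE) did not pass (adjusted p = 0.53 by limma).

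**Figure D4:**
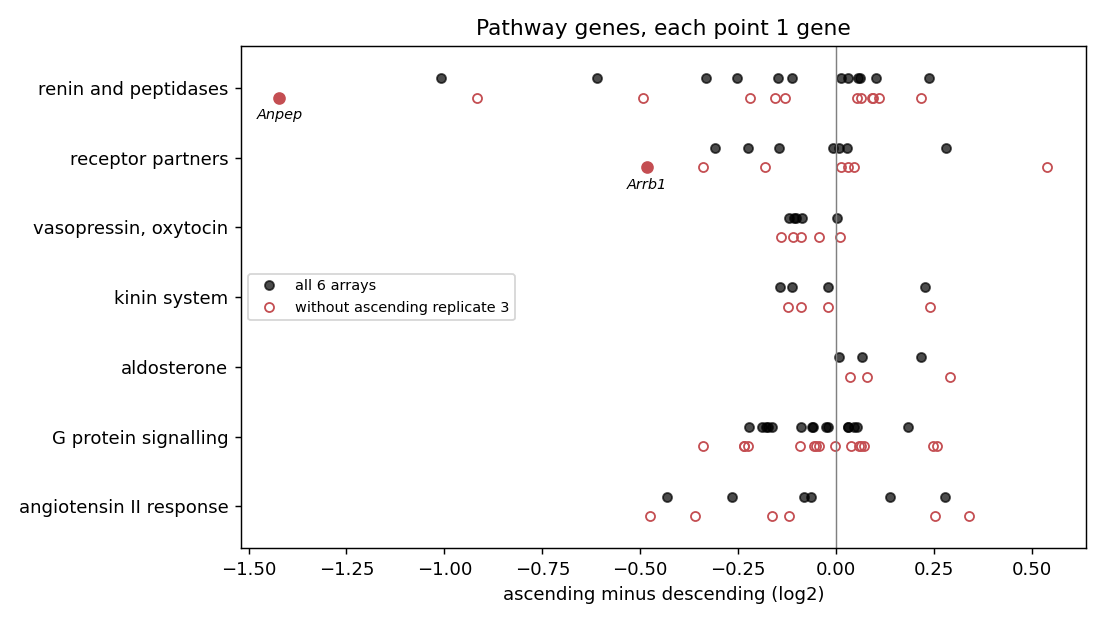
Log2 difference of ascending minus descending aorta for each measured gene of the 7 lists, over all 6 arrays in black and without ascending replicate 3 in red, with filled red points for genes that passed in the second fit. The 2 filled points are Anpep at -1.42 and Arrb1 at -0.48, and most other genes lie close to 0.

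Markers of several cell types differed between the same arrays as Agtr2 and Avpr1a, and in bulk RNA fewer cells of a type and less RNA per cell cannot be told apart. Acta2, the smooth muscle actin of the vessel wall, lay between 13.6 and 13.8 on all arrays. Other smooth muscle markers moved in both directions. Without ascending replicate 3 Myh11 differed by -0.62, Tagln by 0.34 and Myocd by 0.50, and of the 6 markers 4 were higher and 2 lower. In a sum of linear values, genes of high signal such as Acta2 weigh most. The summed level of 6 smooth muscle markers, as log2 of the sum of linear values, ran from 14.56 to 14.86 in ascending and from 14.69 to 14.72 in descending aorta, and 0 of 6 passed in either fit. Without ascending replicate 3, endothelial markers passed the limma test as lower in 3 of 6 genes, with summed levels of 13.2 to 13.9 in ascending and 13.9 to 14.1 in descending aorta. Macrophage markers passed as lower in 2 of 5, Lyve1 and Cd68, with sums of 10.6 to 12.02 against 12.01 to 12.05. On ascending replicate 1 Lyve1 lay at -2.43 relative to its descending mean and Cd68 at -0.43. Adgre1, Csf1r and Ptprc lay at -0.11, -0.14 and -0.0029 there. Fibroblast and mesenchyme markers passed as lower in 2 of 6, Col14a1 and Col1a1, with sums of 14.45 to 14.92 against 14.90 to 14.97. Lum of that list went the other way, at 0.36 in this fit, and did not pass. Mesothelial markers passed as higher in 4 of 5, with sums of 11.5 to 13.1 against 11.1 to 11.4, and cardiac muscle markers in 1 of 5, with sums of 12.05 to 12.7 against 11.5 to 11.9. Of 4 pericyte markers 1 passed as higher, but 3 had a lower mean, and the median difference of that list was -0.26. Pericyte sums ran from 12.6 to 13.1 in ascending and from 12.8 to 13.0 in descending aorta. Of 4 cartilage markers 2 passed as higher and 1 as lower. In this fit 4.68% of all genes passed in either direction and 2.61% as lower. With descending replicate 1 left out too, 2 endothelial, 1 macrophage and 0 fibroblast and mesenchyme markers passed as lower. As higher passed 4 mesothelial, 1 cardiac, 1 pericyte and 1 cartilage marker. Of all genes 2.35% passed in that fit in either direction and 1.18% as lower. No marker of any list passed over all 6 arrays in limma. The part of these cell types in the Agtr2 and Avpr1a values was not tested. Adrenal cortex and nephron markers, tissues known for angiotensin receptors near the descending aorta, had 0 of 6 and 0 of 4 genes passing in either fit, with sums of 8.68 to 8.82 and 8.61 to 8.68 in ascending against 8.70 to 8.81 and 8.57 to 8.72 in descending aorta.

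**Figure D5:**
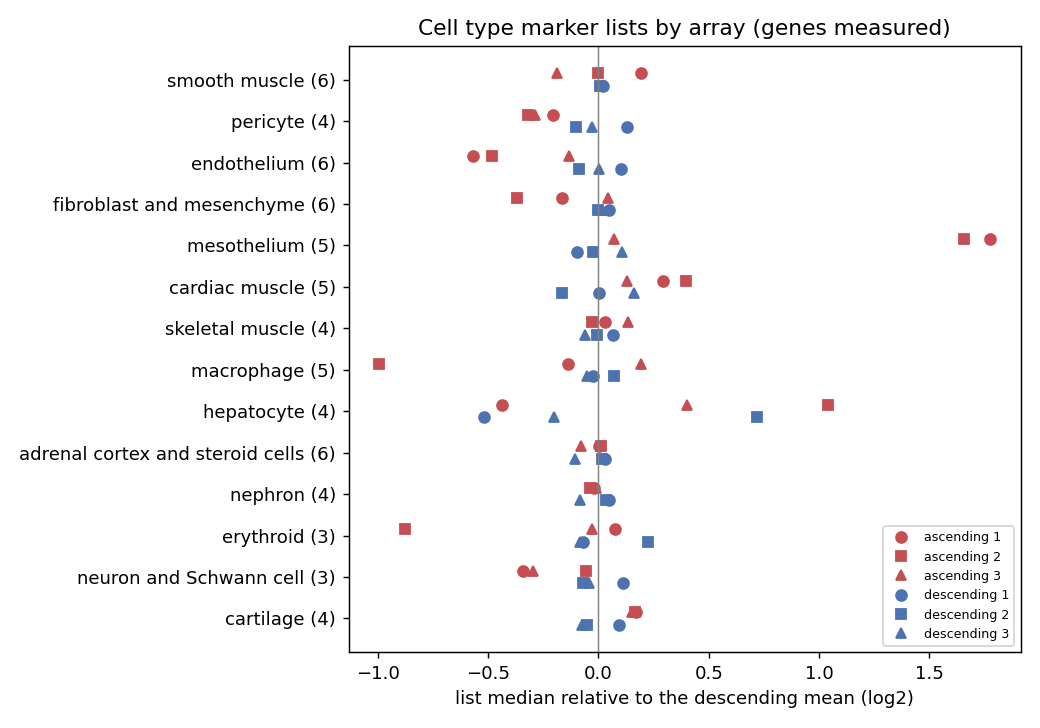
Median log2 position of each marker list on each array relative to the genes' descending means, with ascending aorta in red and descending aorta in blue and the number of genes measured in brackets. Mesothelial markers lie at 1.78 and 1.66 on ascending replicates 1 and 2 and at 0.069 on replicate 3, and hepatocyte markers vary within both segments.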

How the data were processed

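Total RNA was extracted with Trizol, labelled as biotinylated cRNA and hybridised to Affymetrix arrays, per the labels' protocols. The log2 values were made by the authors with RMA, and Partek 6.6 is also named, per the submitters' processing notes. For settings, genome build and annotation the sources used here give nothing. That the deposited values are log2 was inferred from their range, which ran from 2.53 to 14.64 with array medians of 7.14 to 7.22. RMA makes distributions alike, hides changes shared by most genes and compresses differences of dim genes. Of 35556 probe sets, 21789 had 1 gene symbol and were used, 1621 had several and 12146 none. For the 999 genes with several probe sets the one with the highest mean was kept, with no filter. Of the 21789 probe sets with 1 symbol, 21698 matched a GRCm38.p6 RefSeq table by Entrez number, which also gave coordinates.

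Segments were compared with lmFit and eBayes (limma 3.58.1, R 4.3.3), two-sided, without covariates. Differences are ascending minus descending. The scripts were tested on simulated data. Tables were made in Python 3.11.15 (pandas 2.3.3) and plots with matplotlib 3.10.9. The members, lists and alternatives were chosen with earlier results of these data known. The text names every measured member, 9 preset pathway genes where measured, pathway genes that passed in either fit, the largest difference of each list, and the 5 nearest genes of members that spanned at least 1. Mtus1, Avp, Alb, Fmo1, Myh11, Tagln and Myocd were named after their values were seen. So were Lum, Col14a1, Col1a1 and the macrophage markers. The 14 alternatives covered normalization, a filter, probe sets, variance, the replicate number and left-out arrays. The 3 arrays per segment limit the precision of every value.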

Additional observations from a re-analysis of the deposited data

How the results depend on the processing

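Over all arrays, limma called 0 genes, 0 members and 0 of the 52 other pathway genes. The same held in limma after repeated quantile normalization, median-centring, a filter that left out genes below the 50th percentile (which removed Agt and Avpr1a), the mean of all probe sets, a variance trend, no moderated variance and the replicate number as a block. Leaving out 1 array in turn gave 0 to 933 genes, 0 to 2 members and 0 to 2 pathway genes, with calls only without ascending replicate 3. Without that array and descending replicate 1 together, 469 genes and 1 member, Agtr2, passed, Agtr2 differed by -2.46 and Ace by 0.46. The number of members whose groups do not overlap was 1 after repeated quantile normalization (Agtr2) and 1 after median-centring (Agtr1a). It was 2 to 4 with 1 array left out and 5 with both arrays left out. Groups of fewer arrays separate more easily, so these last counts cannot be set beside the 14.8% of all genes over all arrays. The share of all genes with arrays left out was not computed. With 1 array left out, differences ran from -2.38 to -1.10 for Agtr2 and from -1.15 to -0.49 for Avpr1a, both nearest 0 without ascending replicate 2, and from -0.42 to -0.15 for Agtr1a, from -0.31 to -0.098 for Agtrap and from -0.13 to 0.32 for Ace, which changed sign without ascending replicate 1 or descending replicate 2. Agt was 0.0034 after repeated quantile normalization, a sign change within its SE. The cause of these changes was not tested. The median over members ran from -0.37 to -0.12, the end nearest 0 without ascending replicate 2. The labels do not say that a replicate number pairs arrays. Same-numbered arrays' deviations from their group means correlated at -0.080, -0.055 and 0.024 across genes. With the replicate block Agtr2 differed by -1.65 ± 0.43 (SE, adjusted p = 0.60 by limma), and the block changed no call.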

Other observations

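Hepatocyte transcripts varied between arrays of the same segment. Afp, the gene of the fetal liver protein alpha-fetoprotein, read 6.77, 9.29 and 8.29 on ascending replicates 1, 2 and 3 and 6.34, 8.25 and 7.01 on descending replicates 1, 2 and 3. Set against the genes' descending means, the list's median stood at 1.04 on ascending replicate 2 and 0.72 on descending replicate 2, and -0.44 and -0.52 on replicate 1 of each segment. Over all 6 arrays 0 of the 4 measured hepatocyte markers passed in limma, and 0 had an unadjusted p under 0.05. These genes were picked for description after their values were seen.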
